A study of Mus musculus with 6 samples.

Results

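The 10 genes Ccnd1, Ccnd2, Ccnd3, Cdk4, Cdk6, Ccne1, Ccne2, Rb1, E2f1 and E2f3 encode the G1 cyclins, their kinases, the retinoblastoma protein and E2F factors. They were taken by name from the 55450 genes of GENCODE M21, of which 21951 are protein-coding. For each gene, every H3K79me2 peak was collected over a window made of the gene body and the 3 kb upstream of its annotated start, on the mouse build mm10 (GRCm38). The peaks came from 4 ChIP-seq libraries of N2a cells, an established mouse neuroblastoma line. In 2 control libraries (CTR) the cells had been transfected with the plasmid pLKO.1-shCTR (Non Target #3), and in 2 knockdown libraries (NPM1 KD) with pLKO.1-shNpm1 (TRCN0000115430), a short hairpin RNA against Npm1. All cells were collected after 3 days in vitro, 72 h after transfection. Puromycin selection at 9.3 µg/ml is given for the knockdown experiments in the protocol of both groups. According to the methods, the 2 replicates were different passages transfected in separate batches. The comparison rests on 1 cell line and 1 hairpin against Npm1, and peaks of a histone mark do not measure how far Npm1 itself was reduced.

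D-type cyclins bind the kinases CDK4 and CDK6 in response to growth signals. These complexes, and later cyclin E with CDK2, phosphorylate the retinoblastoma protein, which then releases E2F transcription factors, and E2F switches on genes for DNA replication, cyclin E among them. H3K79me2, the dimethylated lysine 79 in the core of histone H3, is laid down by DOT1L and is known to cover the first part of transcribed genes.

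Pairs of values are given in the order of replicates 1 and 2 throughout. A peak is a stretch where the peak caller MACS2 found more sequenced fragments than background. Each library had a broad list, in which neighbouring enriched stretches are joined to domains, and a narrow list with the position of each summit. The broad lists held 34845 to 48764 peaks and the narrow lists 73801 to 88348. The number of reads was unknown, but the pair of fold and p given for each narrow peak yielded its fragment pileup and the background pileup, a relative measure of depth. The background was 11.9 and 7.65 fragments (CTR) and 8.99 and 11.8 fragments (NPM1 KD), so each group held a deeper and a shallower library. Markers of the labelled cell type carried the mark. A broad peak was present in all 4 libraries at 6 of 7 neuroblast and sympathetic markers (not at Dbh) and at 4 of 5 neuronal markers (not at Nefl). Of 9 markers of other cell types, 7 lacked broad peaks in every library and 1, Mbp, had one in all 4. The remaining marker, Pecam1, had 246 and 213 covered bp in CTR, against 0 and 161 bp in NPM1 KD. Both NPM1 KD values were below both CTR values there, but the gene had too few covered bp to be tested. At 0 of the marker genes tested were both NPM1 KD libraries above, or below, both CTR libraries.

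Of the 10 genes, 8 carried a broad peak in all 4 libraries, against 51.2% of protein-coding genes. Ccnd2 and Cdk6 had no peak in any of the 8 lists, which was the case for 44.7% of protein-coding genes. The mean share of the window covered by broad peaks over the 4 libraries was 93.1% at Ccnd1, 91.6% at E2f3, 62.5% at Cdk4, 52.0% at E2f1, 46.3% at Ccne2, 27.6% at Ccne1, 7.89% at Rb1 and 6.36% at Ccnd3. In this order the library ranges of Ccnd1 and E2f3 overlapped, and so did those of E2f1 and Ccne2. The library ranges of the other neighbouring pairs did not overlap, but for Rb1 and Ccnd3 the gap between the lowest share of the former (7.15%) and the highest of the latter (6.68%) was smaller than the range of Rb1 itself (7.15% to 8.83%). A low share in a long gene can stand for as many bases as a high share in a short one. The median share was 49.1% over the 8 marked genes and 50.2% over all protein-coding genes with a broad peak in all 4 libraries.

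**Figure D1:**
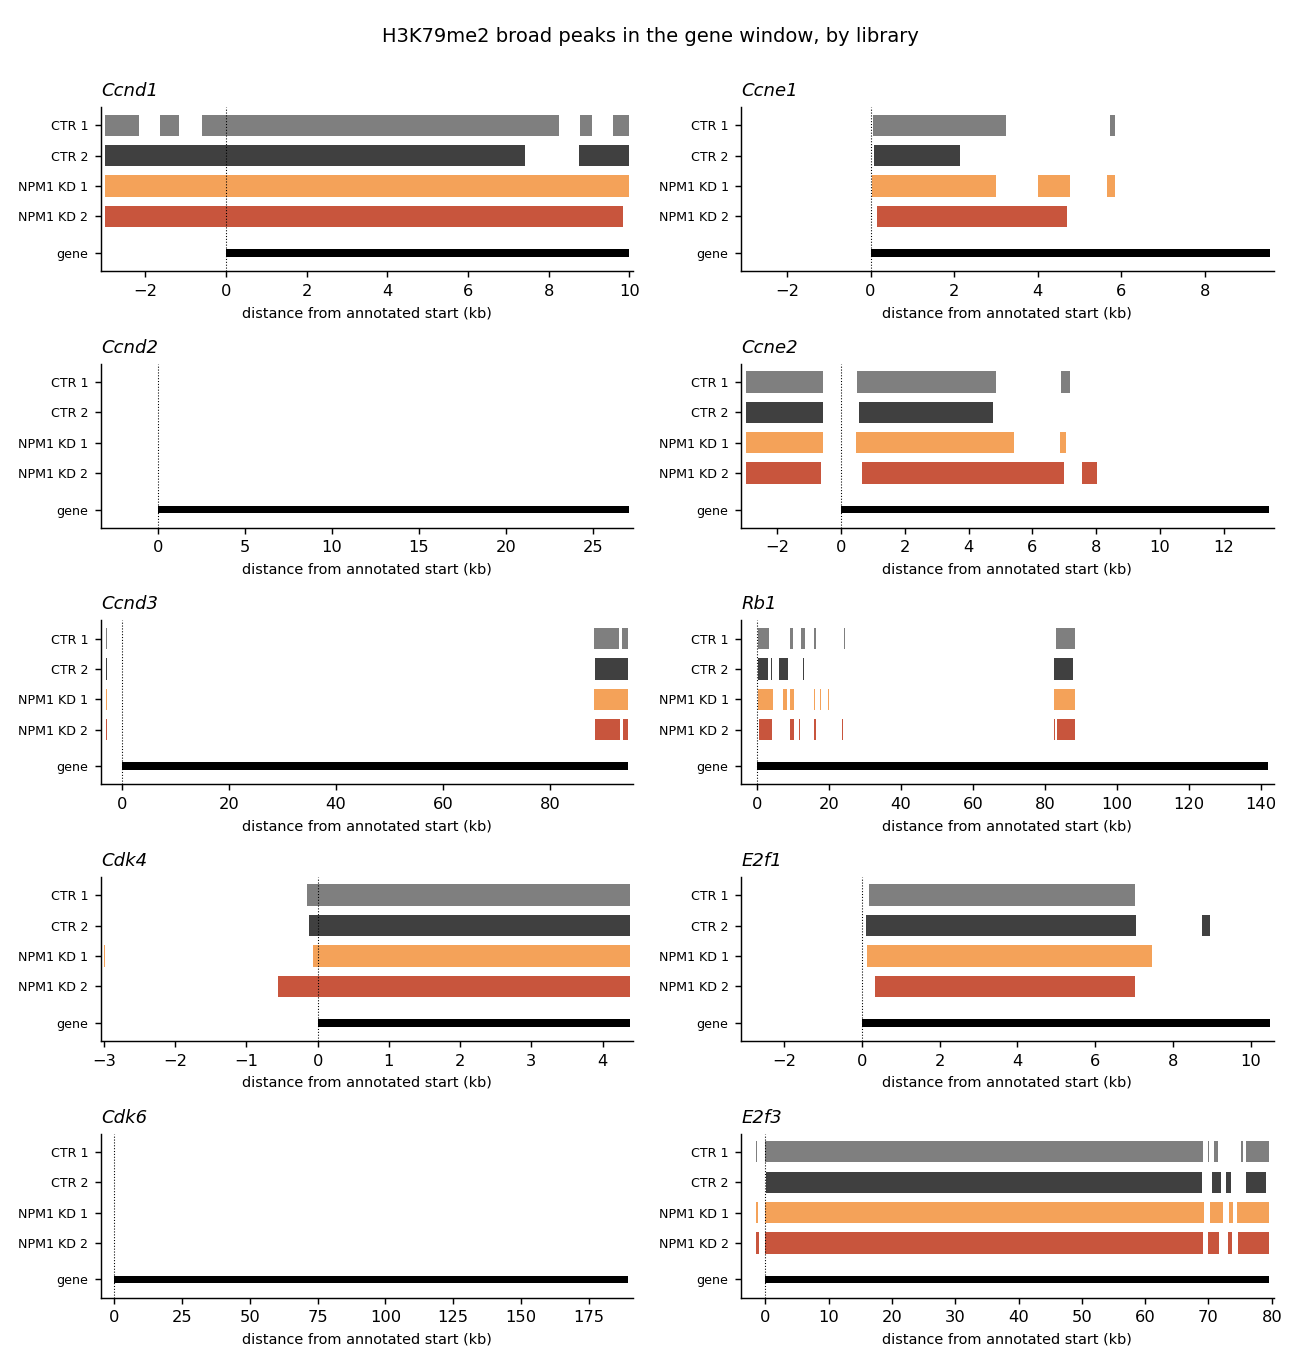
Broad H3K79me2 peaks (coloured bars) in the window of each gene for the 4 libraries, with the gene as a black bar and the distance from the annotated start in kb on the horizontal axis. The windows of Ccnd2 and Cdk6 are empty in all 4 libraries, that of E2f3 is marked over most of its length, and the marked stretches of Ccnd3 and of the downstream part of Rb1 lie far from the annotated start.

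Among the D-type cyclins, Ccnd1 and Ccnd2 stood at opposite ends. Ccnd1 (chr7:144929931-144939925, minus strand), the cyclin most often linked to mitogen signals and overexpressed in tumours, had broad peaks over 10915 and 11663 bp (CTR) and 12995 and 12840 bp (NPM1 KD) of its 12995 bp window. Both NPM1 KD libraries were above both CTR libraries, and in NPM1 KD 1 the window was covered from end to end, where the measure can go no higher. The domain over the start began at -598 and -5272 bp in CTR, against -6018 and -5372 bp in NPM1 KD. The CTR libraries had 5 and 2 separate broad peaks in the window, and the NPM1 KD libraries had 1 each. The narrow lists gave 9451 and 8852 bp in CTR and 10942 and 11024 bp in NPM1 KD, with the same order of groups.

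The highest narrow summit of Ccnd1 lay in an intron, 1699 bp from the start in NPM1 KD 1 and between 726 and 772 bp from it in the other 3 libraries. The last 1771 bp of the gene also belong to LTO1, an overlapping annotated gene. Leaving those bases out, 10145 and 10417 bp were covered in CTR and 11224 bp in each NPM1 KD library, so the groups were still apart.

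Ccnd2 (chr6:127125162-127152193, minus strand), the D-type cyclin found in many neural and gonadal progenitors, had no peak in its 30032 bp window. The next broad peak lay 15.4 and 15.6 kb past the 3′ end in CTR, against 15.4 and 15.5 kb in NPM1 KD, at the start of the neighbouring gene Tigar. On the upstream side the nearest broad peak lay 298824 to 299022 bp from the window. The lists hold only stretches that passed the caller's threshold, so an enrichment below it would not be seen.

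Ccnd3 (chr17:47505051-47599691, plus strand), the third D-type cyclin, was marked at an internal start and not at its first annotated one. That first start is called the annotated start here. Broad peaks covered 6008 and 6445 bp of its 97641 bp window in CTR, against 6525 and 5858 bp in NPM1 KD, and the groups overlapped. The main domain began 88.3 kb downstream of the annotated start in CTR 1, and its first base lay between 88324 and 88412 bp from that start in all 4 libraries. RefSeq places a second Ccnd3 start 88416 bp from the first, in the same place. GENCODE M21 also has protein-coding Ccnd3 transcripts that begin at 88419 and 91017 bp. A small piece at the outer edge of the window, between 188 and 222 bp long, belonged to a domain over the neighbour Taf8.

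The 250 bases before each of the 2 starts of Ccnd3 are shown because the mark lay at one start and not at the other. They are from RefSeq (GRCm38.p6, plus strand), the annotated start at chr17:47504801-47505050 and the internal one at chr17:47593217-47593466. The last bases of the second overlap a retained-intron transcript of Ccnd3.

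Ccnd3 annotated start: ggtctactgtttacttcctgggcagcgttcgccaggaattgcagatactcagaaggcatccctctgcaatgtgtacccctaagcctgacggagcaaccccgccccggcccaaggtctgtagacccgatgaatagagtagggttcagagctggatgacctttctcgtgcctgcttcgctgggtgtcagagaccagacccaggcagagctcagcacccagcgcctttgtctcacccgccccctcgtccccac

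Ccnd3 internal start: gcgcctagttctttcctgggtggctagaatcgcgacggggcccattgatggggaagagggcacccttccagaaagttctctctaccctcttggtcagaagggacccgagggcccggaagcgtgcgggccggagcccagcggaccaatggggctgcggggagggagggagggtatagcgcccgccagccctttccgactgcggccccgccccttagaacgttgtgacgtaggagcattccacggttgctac

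The ratio of observed to expected CpG in these bases was 0.506 before the annotated start and 0.729 before the internal one. Over 21931 protein-coding genes whose 250 bases before the start were read, the median was 0.486, and 41.2% were above 0.6. No base before the annotated start was under a broad peak in any library. Before the internal start 92 and 4 of 250 bases were covered in CTR, against 78 and 20 in NPM1 KD. For the 2 genes with no peak the ratio was 0.803 before the annotated start of Cdk6 and 0.470 before that of Ccnd2. Their annotated protein-coding transcripts begin farther downstream, at 2408 and 2827 bp in Cdk6 and between 1133 and 1186 bp in Ccnd2, so these bases do not lie before the coding transcripts.

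Of the kinases, Cdk4 (chr10:127063534-127067920, plus strand), which pairs with D-type cyclins, held the strongest signal of the 10 genes. Its highest narrow summit reached a fold over background of 47.3 and 46.9 in CTR, against 46.1 and 38.4 in NPM1 KD. These folds were above 99.7% of the narrow peaks of the same library in all 4 cases. The fragment pileup at the summit was 608 in CTR 1 (95% exact Poisson interval 561 to 658), 405 in CTR 2 (367 to 446), 459 in NPM1 KD 1 (418 to 503) and 490 in NPM1 KD 2 (448 to 535). The intervals cover counting error only. The summit lay in an intron, 304 to 398 bp from the start in the 4 libraries.

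Broad peaks covered 61.5% and 61.1% of the Cdk4 window in CTR and 60.4% and 66.9% in NPM1 KD, and the groups overlapped. The gene body of 4387 bp was covered from end to end in all 4 libraries, so only upstream bases differed. The domain began at -155 and -125 bp (CTR) and -64 and -556 bp (NPM1 KD), counted from the start. It ran on to 9.10 kb, 8.89 kb, 9.02 kb and 9.43 kb, past the end of the 4387 bp gene and over the neighbour Tspan31, which shares its last 641 bp. The 250 bases before the start (chr10:127063284-127063533, plus strand, GRCm38.p6) are shown because the domain edge lay inside them in 3 of the 4 libraries, with the hexamer CACGTG in capitals. This E-box hexamer is bound by MYC and related factors and reads the same on both strands.

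Cdk4: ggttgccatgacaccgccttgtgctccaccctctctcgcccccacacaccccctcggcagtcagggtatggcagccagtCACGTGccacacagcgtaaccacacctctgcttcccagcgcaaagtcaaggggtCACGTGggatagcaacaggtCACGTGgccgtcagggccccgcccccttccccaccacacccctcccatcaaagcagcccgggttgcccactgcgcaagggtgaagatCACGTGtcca

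CACGTG occurred 4 times in this stretch, at -171, -117, -97 and -10 bp. It occurred at least once in the same 250 bases of 6.53% of protein-coding genes and at least 3 times in 0.0821%. Ccne2 and Ccnd2 held 1 copy each before the annotated start, which in Ccnd2 is not the start of a coding transcript. A match of letters does not show that a factor was bound.

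Cdk6 (chr5:3341485-3531008, plus strand), the second kinase partner of the D-type cyclins, had no peak in its window of 192524 bp. The next broad peak lay between 12.6 and 12.7 kb past its 3′ end in all 4 libraries, at the start of the gene Fam133b. The nearest narrow peak on the upstream side was 153 kb from the window. The kinase pair thus held 1 gene with a strong domain and 1 with no peak, as did Ccnd1 and Ccnd2 among the cyclins.

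Cyclin E genes had lower signals. Ccne1 (chr7:38097984-38107534, minus strand), a partner of CDK2 and a textbook target of E2F, had broad peaks over 3296 and 2073 bp in CTR, against 3944 and 4548 bp in NPM1 KD, in a window of 12551 bp. Both NPM1 KD libraries were above both CTR libraries, and the lowest value was in CTR 2, the shallowest library. The same order held in the narrow lists, with 2565 and 2044 bp in CTR and 2932 and 2842 bp in NPM1 KD. The domain of Ccne1 began 37 to 144 bp downstream of the start in the 4 libraries. Its highest narrow fold was 10.4, 7.86, 11.01 and 6.42 in the order CTR 1, CTR 2, NPM1 KD 1 and NPM1 KD 2, with the groups overlapping.

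Ccne2 (chr4:11191351-11204779, plus strand), the second cyclin E gene, had broad peaks over 7042 and 6627 bp (CTR) and 7589 and 9154 bp (NPM1 KD) of its 16429 bp window. Here also both NPM1 KD libraries were above both CTR libraries. In the narrow lists the values were 5558, 4899, 4991 and 6121 bp, and the groups overlapped. No broad peak lay over the start itself. An upstream domain ended at -585, -556, -565 and -639 bp, and the downstream domain began at 483, 575, 471 and 660 bp, in the order of libraries above. This gap at the start was thus found in all 4 libraries.

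The signal of Ccne2 was low. Its highest narrow fold was 4.11 and 4.16 in CTR, against 4.61 and 5.01 in NPM1 KD. The summit pileup was 52 (95% exact Poisson interval 38.8 to 68.2), 35 (24.4 to 48.7), 45 (32.8 to 60.2) and 63 (48.4 to 80.6), and these intervals overlapped. In NPM1 KD 1 the highest summit was in the upstream domain, and in the other 3 libraries it was in an intron downstream.

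Rb1 (chr14:73183673-73325822, minus strand) encodes the retinoblastoma protein, the pocket protein that holds E2F factors back. Broad peaks covered 11444 and 10379 bp (CTR) and 12810 and 11161 bp (NPM1 KD) of its 145150 bp window, and the groups overlapped. The strongest peak of the window began between 82.6 and 83.9 kb downstream of the start, over Lpar6, a gene inside an Rb1 intron on the other strand. Within Lpar6 4804 and 5144 bp were covered in CTR, and 5371 and 4798 bp in NPM1 KD. Its highest summit had a fold of 7.84, 8.67, 7.61 and 8.06 in the order CTR 1, CTR 2, NPM1 KD 1 and NPM1 KD 2.

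The domain at the Rb1 start was weaker, with a highest narrow fold of 4.19, 3.58, 4.31 and 3.68 in the same order, below that of Ccne2 in 3 of the 4 libraries. It began 292 to 417 bp downstream of the start. Its end lay at 3.39 and 2.92 kb (CTR) and 4.31 and 4.07 kb (NPM1 KD). Both NPM1 KD libraries were farther than both CTR libraries, but in CTR 2 a separate broad peak followed at 3910 to 4105 bp. Outside all other genes, 6640, 5235, 7439 and 6363 bp of the window were covered, and the groups overlapped.

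E2f1 (chr2:154559407-154569892, minus strand), an activating E2F and a target of its own family, had the smallest log2 difference between the groups. Broad peaks covered 6848 and 7155 bp of its 13486 bp window in CTR, against 7337 and 6701 bp in NPM1 KD, and the groups overlapped. The domain began 100 to 325 bp downstream of the start and ended at 7.02, 7.05, 7.46 and 7.03 kb in the order above. The highest summit lay in an intron 1651 to 1720 bp from the start, with folds of 15.5 and 15.3 in CTR and 14.1 and 11.03 in NPM1 KD.

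E2f3 (chr13:29906575-29986063, minus strand), the other activating E2F, carried the longest domain. Broad peaks covered 73824 and 74302 bp (CTR) and 77250 and 76754 bp (NPM1 KD) of its 82489 bp window. Both NPM1 KD libraries were above both CTR libraries. A single broad peak ran from the start to 69.2 and 69.0 kb in CTR, against 69.2 and 69.2 kb in NPM1 KD, so its end hardly differed between the groups. The additional bases in NPM1 KD lay mainly in weak broad peaks beyond it, whose average fold was at most 2.53 in any library. The highest narrow summit lay in coding sequence 643 to 724 bp from the start in 3 libraries and in an intron at 19.2 kb in NPM1 KD 2.

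The 250 bases before the E2f3 start (chr13:29986064-29986313, minus strand, from RefSeq, GRCm38.p6) are shown because the longest domain began at or near their end, between -22 and 70 bp, and because they held an E2F site. Searched were TTTCCCGC, TTTCGCGC, TTTGCCGC and TTTGGCGC on both strands, and the match on the other strand is in capitals.

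E2f3: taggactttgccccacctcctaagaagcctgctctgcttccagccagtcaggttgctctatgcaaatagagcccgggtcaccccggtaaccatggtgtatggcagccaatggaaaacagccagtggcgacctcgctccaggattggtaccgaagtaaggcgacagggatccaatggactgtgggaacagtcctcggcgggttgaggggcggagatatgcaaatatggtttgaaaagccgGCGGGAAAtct

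The match GCGGGAAA began at -11 bp. At least 1 such match was found before 2.24% of protein-coding genes, and E2f3 was the only 1 of the 10 genes with one. A gene without a match lacks these letters in this window alone, and the textbook E2F targets Ccne1 and E2f1 had none in it.

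The domain nearest the start was compared next, since its extent is independent of where a long gene ends. A promoter domain (a broad peak over the start, or the first to begin within 1 kb downstream) was present in all 4 libraries at 7 of the 10 genes. It began downstream of the start in all 4 libraries at 4 of these 7, namely Ccne1, Ccne2, Rb1 and E2f1, against 25.5% of 9467 protein-coding genes with a promoter domain. The domain ended farther from the start in both NPM1 KD libraries at 3 of 7 genes (Ccnd1, Ccne2 and Rb1), against 39% of genes, and nearer at 0 of 7, against 5.4%. The end of the Ccnd1 domain was at 8.26 and 7.42 kb (CTR) and 11.1 and 9.84 kb (NPM1 KD), and that of the Ccne2 domain at 4855, 4756, 5434 and 6996 bp. These ends depended on where the caller joined peaks, since separate CTR broad peaks lay beyond them. Such peaks reached 10281 and 10206 bp at Ccnd1, past the domain end in NPM1 KD 2. One ended at 7162 bp in CTR 1 at Ccne2, and one at 4105 bp in CTR 2 at Rb1. The median difference over the 7 genes was 1032.5 bp (median SD between replicates 266 bp), beside 324.5 bp over all genes with a promoter domain. It was 430.5 bp without NPM1 KD 2, 617 bp without CTR 2, 438.5 bp after merging peaks within 1 kb and 229 bp without peaks under a −log10 q of 5. The median over all genes is not given for these settings, so an excess over all genes is not shown there.

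**Figure D2:**
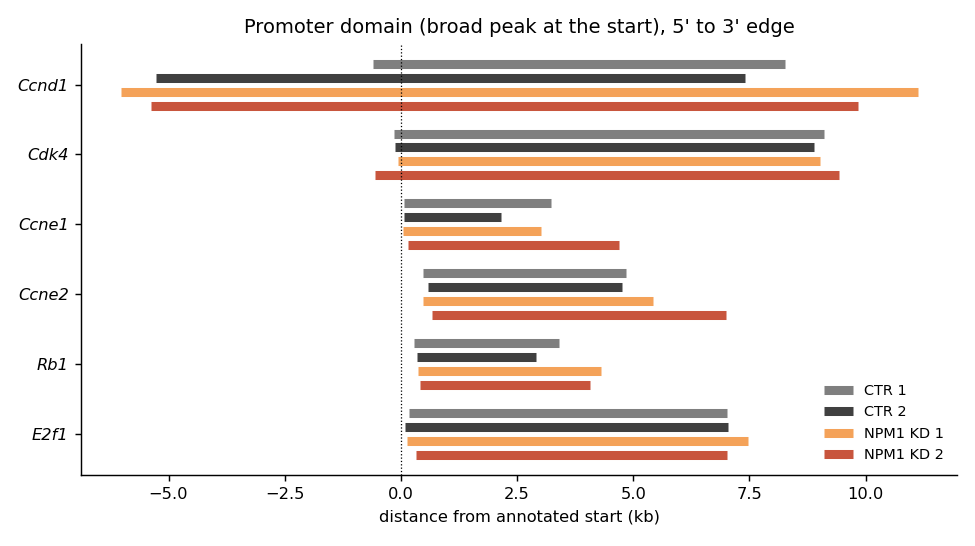
Promoter domains of 6 genes as bars from their 5′ to their 3′ edge in each library, in kb from the annotated start. The bars of Ccne1, Ccne2, Rb1 and E2f1 begin after the start in all 4 libraries, and those of Ccnd1, Ccne2 and Rb1 end farther out in both NPM1 KD libraries (E2f3, whose domain ends near 69.2 kb in each library, is left out for scale).

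The question of the series was how H3K79me2 differed after the knockdown. Both NPM1 KD libraries were above both CTR libraries in covered bp at 4 of the 8 genes tested (Ccnd1, Ccne1, Ccne2 and E2f3), and this was so for 48.4% of the 11019 protein-coding genes tested. Both were below at 0 of 8, against 2.77% of genes. The share among the G1 genes was thus close to that of all genes. The mean covered share went from 86.9% ± 4.07 to 99.4% ± 0.843 at Ccnd1 and from 21.4% ± 6.89 to 33.8% ± 3.40 at Ccne1 (SD, n = 2). It went from 41.6% ± 1.79 to 51.0% ± 6.74 at Ccne2 and from 89.8% ± 0.41 to 93.3% ± 0.425 at E2f3 (SD, n = 2). Without NPM1 KD 2 the count above was 7, and without peaks under a −log10 q of 5 it was 2 (Ccnd1 and Ccne2), with a mean difference of -1636.5 bp at E2f3. The share of all genes is not given for these settings, so these counts cannot be set against 48.4%. With 1 library left out, fewer values have to lie apart and the count is easier to reach. CTR 2, with the lowest background pileup, had the fewest covered bp at 3 of the 8 genes (Ccne1, Ccne2 and Rb1), and the part of depth in the differences was not tested.

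**Figure D3:**
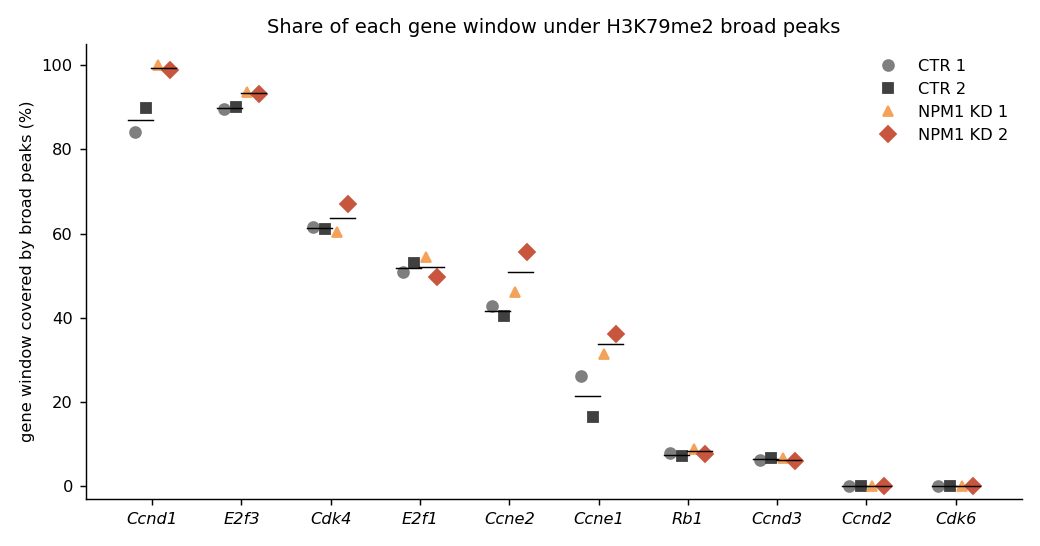
Share of each gene window under broad peaks (percent, vertical axis) for the 4 libraries, with a line at each group mean (n = 2). The NPM1 KD points lie above the CTR points at Ccnd1, E2f3, Ccne2 and Ccne1 and overlap with them at Cdk4, E2f1, Rb1 and Ccnd3, and all points of Ccnd2 and Cdk6 are at 0.

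In all, the windows of the 10 genes were covered over 123.9 and 123.2 kb in CTR, against 132.9 and 132.0 kb in NPM1 KD. The mean was 123.5 ± 0.540 kb (SD, n = 2) in CTR and 132.4 ± 0.676 kb (SD, n = 2) in NPM1 KD. The groups did not overlap (p = 0.33 in a two-sided exact permutation test, which with 2 libraries against 2 can give no lower value), so the test could not pass a threshold of 0.05. The NPM1 KD mean was higher by 7.20% over the G1 genes and 8.05% over all genes tested, and E2f3 alone gave 2939 bp of the difference of 8899.5 bp.

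Gene by gene, the change was tested with limma on log2(covered bp + 1000), the p-values being adjusted by Benjamini-Hochberg across the 11019 genes. Of the 8 G1 genes 0 passed an adjusted p of 0.05. Of all genes tested 1 did (0.00908%), Ddc, named here after its values were seen. On this log2 scale Ddc was at 9.97 in both CTR libraries, the floor for 0 covered bp, against 12.27 and 12.30 in NPM1 KD. It thus met the required mean of 1000 covered bp only through the NPM1 KD libraries. Its limma SE of 0.0216 rests in part on 2 equal floor values. At an unadjusted p under 0.05 there were 1768 genes, 1726 of them with a positive change, and 1 G1 gene. All genes at that level made up 16.045% of those tested. The G1 gene was Ccnd1, with a log2 change of 0.18 (limma SE 0.041, adjusted p 0.278). With the replicate number as a block its unadjusted limma p went from 0.0249 to 0.0551, so that 0 G1 genes remained under 0.05. Rb1 was just past that level with the block, at an unadjusted limma p of 0.0505. Over all 11019 genes, 2326 were under 0.05 with the block, more than the 1768 without it.

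The log2 change was 0.53 at Ccne1 (limma SE 0.215, adjusted p 0.370), 0.25 at Ccne2 (limma SE 0.108, adjusted p 0.380) and 0.06 at E2f3 (limma SE 0.018, adjusted p 0.329). For the other 4 genes it was 0.12 at Rb1 (limma SE 0.096, and 0.027 with the block), 0.04 at Cdk4, 0.00 at E2f1 and -0.01 at Ccnd3. The median over the 8 genes was 0.09, beside 0.08 over all genes tested, and 83.8% of all genes tested had a positive change. Ccne1, Ccne2, Ccnd1 and Rb1 were thus above the median of all genes, and E2f3, Cdk4, E2f1 and Ccnd3 below it.

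**Figure D4:**
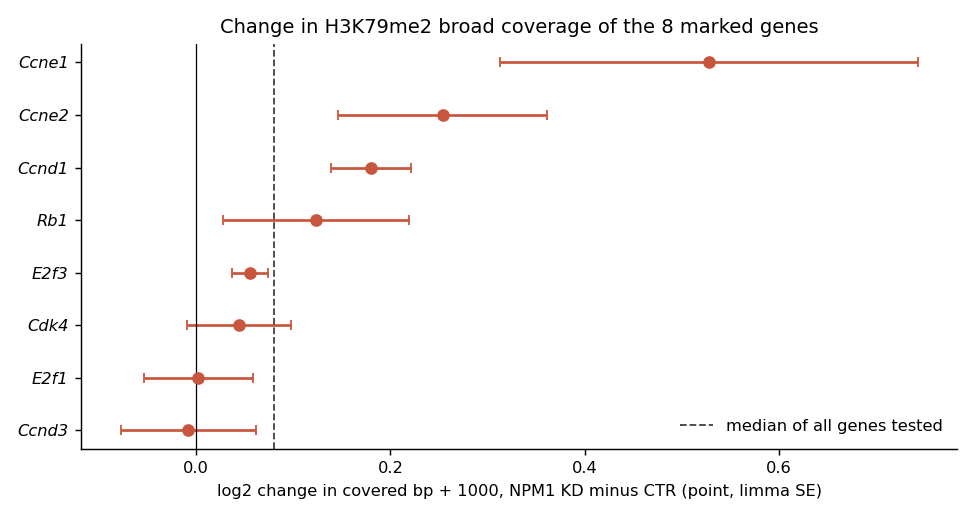
Log2 change in covered bp (+ 1000) from CTR to NPM1 KD for the 8 marked genes, as a point with its limma standard error. Ccne1 is farthest to the right at 0.53, E2f1 and Ccnd3 lie near 0, and the dashed line is the median of all genes tested (0.08).

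Signal height was compared by rank, because the folds as a whole differed between the libraries. The median narrow fold was 2.56 and 3.01 (CTR) and 2.80 and 2.50 (NPM1 KD). The percentile of the highest fold of each gene within its own list was higher in both NPM1 KD libraries at 5 of 8 genes (Ccnd1, Ccnd3, Cdk4, Ccne2 and Rb1), against 34.8% of 11314 genes with a narrow peak in all 4 libraries. It was lower in both at 0 of 8, against 4.91%. A percentile also depends on how many weak peaks a list holds, and the narrow lists held 85655 and 73801 peaks in CTR, against 88348 and 85057 in NPM1 KD. With each list limited to the same number of peaks by q, the percentile was higher at 3 of 8 genes (Ccnd1, Cdk4 and Ccne2), against 24.1% of 11247 genes, and lower at 1 (E2f1), against 11.6%.

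The value of Rb1 in this comparison belonged to the peak over Lpar6. The highest fold of Rb1 outside that peak had a percentile of 78.4 and 65.1 in CTR, against 78.0 and 76.8 in NPM1 KD, and the groups overlapped. The percentile of Ccne2 was 77.8 and 73.2 in CTR, against 80.2 and 84.6 in NPM1 KD. In lists of equal length it was 74.3 and 73.2 (CTR) and 76.3 and 82.2 (NPM1 KD). At Ccnd1 the values went from 97.8 and 97.1 to 98.0 and 98.1. In the broad lists, whose fold is an average over a domain, the count of higher percentiles was 1 (Ccne2). The share of all genes is not given for the broad lists, so this count has nothing to be set against.

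The fold itself went the other way at some of the same genes. It was lower in both NPM1 KD libraries at Ccnd3, Cdk4 and E2f1, that is 3 of 8 against 28% of genes, and higher in both at Ccne2 alone, against 8.91%. At Ccnd3 it was 19.9 and 20.5 in CTR and 19.1 and 16.98 in NPM1 KD. The direction of a difference in height at Cdk4 therefore depended on the scale. The summit pileups of Ccne2, whose groups were apart in the same direction for fold and percentile, had overlapping counting intervals.

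**Figure D5:**
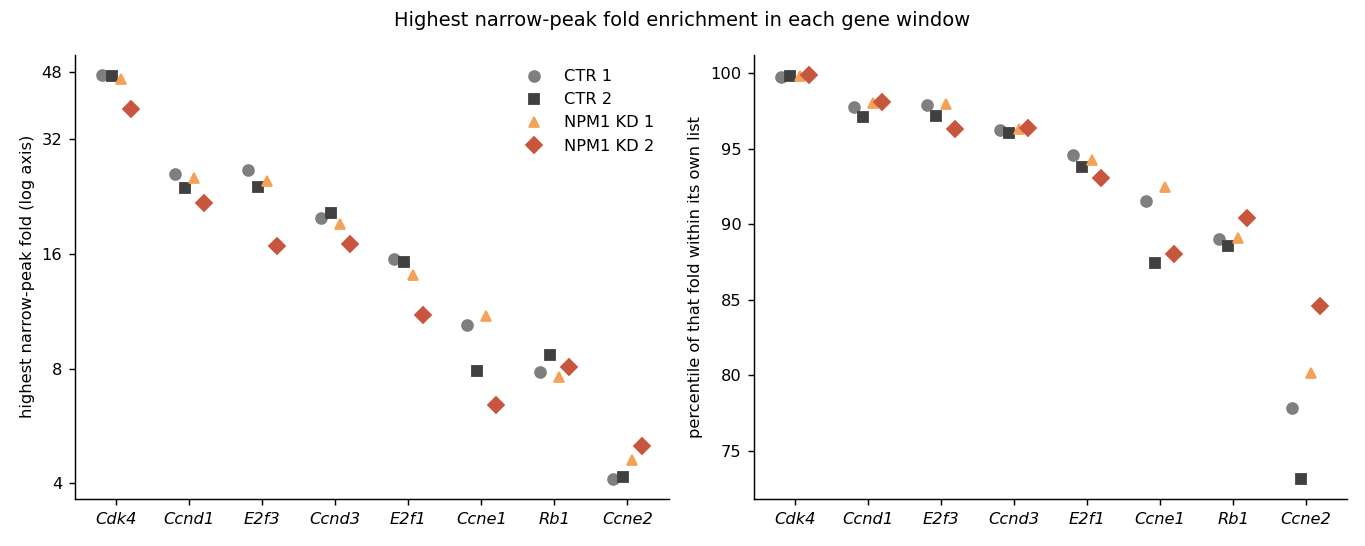
Highest narrow-peak fold in each gene window on a log axis (left) and the percentile of that fold within its own library's list (right), for the 4 libraries. Cdk4 is highest and Ccne2 lowest on both scales (the points of Rb1 are those of the peak over Lpar6), and NPM1 KD 2 has the lowest fold of the 4 libraries at 6 of the 8 genes although its percentiles do not stand apart in the same way.

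Other genes of the pathway were set beside these by lists. Over the 5 lists 0 genes passed the limma threshold, while an unadjusted p under 0.05 was reached by 1 CDK inhibitor, 2 of the other E2F, DP and pocket protein genes, 3 CDK2 and CDK activator genes, 2 replication genes and 0 S and M phase genes, beside 16.045% of all genes tested. In addition, 0 genes had both NPM1 KD libraries below both CTR libraries, beside 2.77% of all genes tested, a share too low for this count to set the lists apart. Among CDK inhibitors, which block cyclin-kinase complexes, 6 of 7 genes were tested and 1 had both NPM1 KD libraries above CTR, with a median log2 change of 0.02. Over all genes tested that share was 48.4%, which applies to the same counts in the other lists too. The largest changes were 0.20 at Cdkn1a, which encodes p21 (limma SE 0.035, adjusted p 0.262), and 0.18 at Cdkn2b, which encodes p15 (limma SE 0.267, adjusted p 0.756). The change of Cdkn2b was 0.49 without NPM1 KD 1 and -0.14 without NPM1 KD 2.

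Of 10 other E2F, DP and pocket protein genes, 5 had both NPM1 KD libraries above both CTR libraries and all 10 had a positive change, as had 83.8% of all genes tested, with a median of 0.11. The largest values were 0.26 at Rbl1 (limma SE 0.090) and 0.20 at Rbl2 (limma SE 0.165), which encode the pocket proteins p107 and p130. Rbl2 had 4163 and 3840 covered bp in CTR, against 5564 and 4042 bp in NPM1 KD, and its change was 0.01 without NPM1 KD 1. Of 8 genes for CDK2 and for the activation of CDKs, 6 were above, with a median of 0.15. Mnat1 and Ccnh, whose products form the CDK-activating kinase together with CDK7, had 0.28 each (limma SE 0.040 and 0.024, adjusted p 0.259 and 0.240). Both values are close to that of Ccne2.

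Of 16 replication genes regulated by E2F, 4 were above, with a median of 0.07, and Mcm6, which encodes a subunit of the replicative helicase, had a change of 0.22. Of 10 S and M phase cyclins and kinases 1 was above, with a median of 0.03, and the largest changes were 0.14 at Mybl2 (limma SE 0.126), a transcription factor of the late cell cycle, and 0.10 at Plk1 (limma SE 0.058), a mitotic kinase. Without NPM1 KD 1 these were -0.01 at Mybl2 and 0.04 at Plk1. The medians of these 5 lists lay between 0.02 and 0.15, around the 0.08 of all genes tested. A broad peak in all 4 libraries was present at every gene of the 5 lists except 1 CDK inhibitor, which had none.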

How the data were processed

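H3K79me2 was profiled by ChIP-seq in 4 libraries, 2 CTR and 2 NPM1 KD. The input libraries, 1 per group, were not analysed here. The authors aligned reads to mm10 with Bowtie2 2.3.4.1, kept those with a mapping quality above 5 and called broad and narrow peaks per library with MACS2 (2.2.6 in the submitters' processing notes, another version in the methods). Whether the inputs served as background was not given in the sources used here. The deposited lists hold a score, a fold over background (a ratio) and the −log10 of p and q for each peak. At 97.9% or more of 2000 summits solved per list, 1 background value accounted for fold and p.

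Covered bp were counted over each gene body plus 3 kb upstream (GENCODE M21, any overlap). Protein-coding genes with a mean of at least 1000 bp were fitted with limma 3.58.1 (R 4.3.3) on log2(bp + 1000), and Benjamini-Hochberg adjustment covered all genes tested. Other steps used Python 3.11.15, numpy 2.4.6, pandas 2.3.3, scipy 1.17.1, pysam 0.24.0 and matplotlib 3.10.9, and the fit was tested on simulated data. Sequences came from RefSeq, whose promoter table held 6 of the 10 genes. The genes, the lists and the tests were chosen with earlier results of these data known. All 10 genes are named, and of each pathway list the 2 with the largest absolute log2 change, except that 1 replication gene is not reported here. Since the pairing of replicate numbers across groups is not given, the fit had no block. Alternatives changed the pseudocount, filters, lists, thresholds, windows and libraries, and 4 of them were chosen after seeing the data.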

Additional observations from a re-analysis of the deposited data

How the results depend on the processing

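Of the 8 G1 genes 0 passed the limma threshold in any of 14 alternative fits, and their lowest limma adjusted p lay between 0.125 and 0.605. Over all genes, 0 passed with a pseudocount of 5000 bp, all annotated genes, the narrow lists or lists of equal size, and 8 (7 positive) passed when peaks under a −log10 q of 5 were dropped. Leaving out 1 library gave 0 to 0, with the lone library assumed to vary like the other group. With a replicate block 0 genes passed and the median of the G1 genes was again 0.09, while the unadjusted limma p of Ccnd1 was 0.0551 and the SE of Rb1 0.027. Deviations of same-numbered libraries correlated at 0.293, and with 2 pairs this does not establish a pairing.

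The median log2 change of the G1 genes was 0.051 in the narrow lists and 0.054 at the stricter q, and 0.06 to 0.10 with 1 library left out. The median of all genes was 0.070, 0.051 and 0.04 to 0.11 in these fits, and above that of the G1 genes in the narrow lists, in lists of equal size and without CTR 1 or NPM1 KD 2. The count above was 2 at the stricter q, and 4 to 7 with 1 library left out (7 without NPM1 KD 2). The count below was then 0 to 2. No share of all genes is given for these counts, so they cannot be set against the shares of the main fit. The difference in total bp was 4917 in the narrow lists, 6222 at the stricter q, 7409 in lists of equal size, 7932 over gene bodies, 8013.5 without other genes and 8421.5 to 9377.5 with 1 library left out. At the stricter q the E2f3 difference was -1636.5 bp. The median difference in domain end was 229 bp at the stricter q, 438.5 bp after merging peaks within 1 kb, 387 bp in merged narrow peaks and 430.5 to 1271 bp with 1 library left out (430.5 without NPM1 KD 2, 617 without CTR 2). The count of higher fold percentiles was 1 in the broad lists, 1 for the fold itself, 3 in narrow lists of equal size and 5 to 7 with 1 library left out. The count of lower ones was 3 for the fold itself, 1 in narrow lists of equal size and 0 to 2 with 1 library left out (1 without CTR 2, 2 without NPM1 KD 1). No values over all genes are given for the domain ends in these settings. The same holds for the percentile counts in the broad lists or with 1 library left out. The causes were not tested. Depth differs between libraries, and stretches below the caller's threshold are not seen.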
